A study of Mus musculus with 7 samples.

Results

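The genes described here are 9 complement components and regulators, chosen by name: *C1qa*, *C1qb*, *C1qc*, *C1ra*, *C4b*, *C3*, *Cfb*, *Cfi* and *Serping1*. They are 9 of the 52550 genes in the count table, and the list was drawn up with earlier results of these data known. Each library held the total RNA of both retinas of 1 mouse. WT mice (n = 4) were compared with SCA7 mice (n = 3), homozygous knock-in animals that carry an expanded CAG repeat in *Atxn7* on both alleles (SCA7 KI). All 7 mice were C57BL/6J and 12.5 weeks old, and the labels give no sex. The expanded allele is read from the *Atxn7* promoter, so it is present in every cell type of the retina and of the body. Libraries held between 56497675 and 96635832 counts, so 1 count was worth 0.00972 to 0.0188 CPM, the unit used here for counts scaled to the TMM-adjusted library total. *Atxn7* itself was at 39.2 ± 4.26 CPM in WT (SD, n = 4) and 37.6 ± 2.99 in SCA7 retina (SD, n = 3), with a log2 difference of -0.06 (SE 0.09, adjusted p = 0.64), and these counts do not read the length of the repeat.

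Complement is a cascade of plasma and tissue proteins that tags cells, debris and synapses for removal. In the classical pathway C1q, built from the products of *C1qa*, *C1qb* and *C1qc*, binds a target and activates the proteases C1r and C1s, which cleave C4 and C2, and the resulting convertase cleaves C3. The alternative pathway amplifies C3 cleavage through factor B (*Cfb*), while C1 inhibitor (*Serping1*) blocks C1r and C1s and factor I (*Cfi*) cuts up deposited C3b and C4b. In the retina C1q is known chiefly as a microglial product, and glia and the pigment epithelium also make complement proteins.

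All 8 of the 9 genes that had enough counts to be tested were upregulated in SCA7 retina and none was downregulated. A gene was called upregulated at an adjusted p under 0.05 (edgeR quasi-likelihood test, Benjamini-Hochberg over 20128 genes) with FC (SCA7/WT) above 1.3, which 7.47% of all genes tested met, and downregulated with FC under 0.7, which 7.91% met. The median log2 fold change was 1.48 over the 8 genes and -0.02 over all genes tested. For each of the 9, every SCA7 library stood above every WT library, a pattern that 19.3% of all genes tested showed. *Cfb*, with 9 counts or fewer in any library, was left out of the test. *C4b* had the largest fold change. *C3* had the smallest, although the change of its ratio to *Cfi*, the next smallest, lay within the spread between libraries (-0.39 on the log2 scale, single differences from -1.23 to 0.35, exact two-sided permutation p = 0.371, n = 4 and 3).

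**Figure D1:**
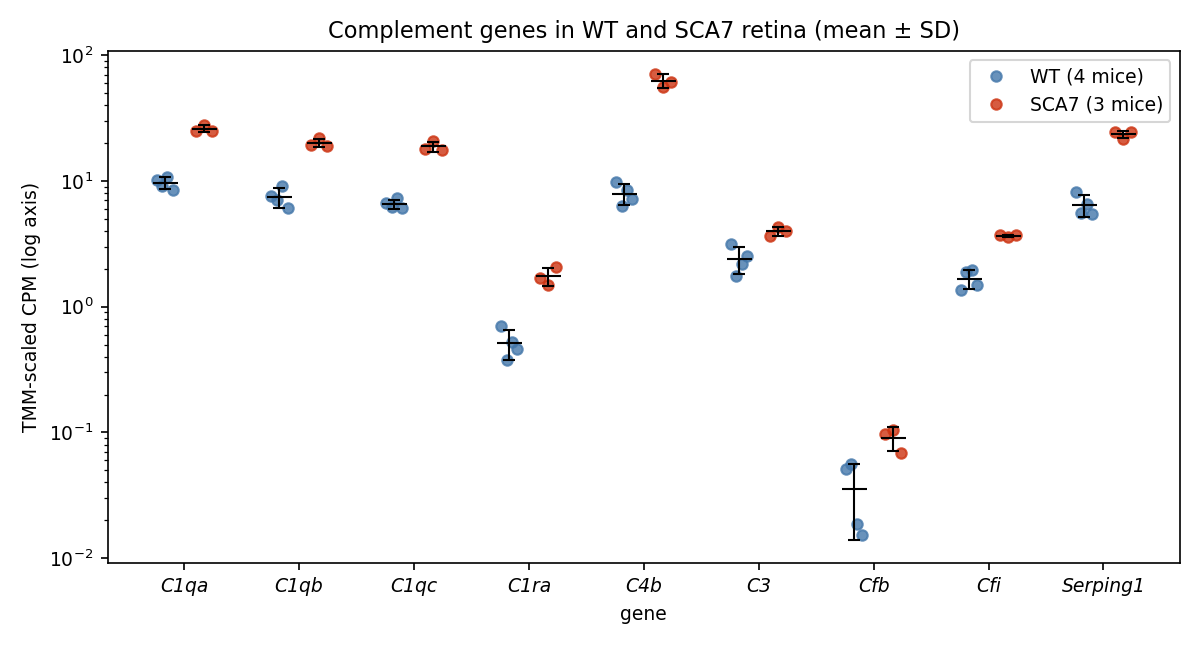
TMM-scaled CPM (log axis) of the 9 complement genes in each WT (blue, 4 mice) and SCA7 (red, 3 mice) library, with horizontal bars for the mean and error bars for the SD. The red points lie above the blue points for every gene, with the widest gap at *C4b* (7.94 against 62.6 CPM) and a narrow one at *C3* (2.40 against 3.98 CPM).

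The 3 C1q chains lie next to each other on the minus strand of chromosome 4 (mm10), *C1qa* (ENSMUSG00000036887) at chr4:136895917-136898803, *C1qc* (ENSMUSG00000036896) at chr4:136889804-136893065 and *C1qb* (ENSMUSG00000036905) at chr4:136880129-136886187. Of the 9 genes, 4 matched a window of 250 bases before the gene start in the RefSeq promoter table (GRCm38.p6), namely *C1qb*, *C1qc*, *C1ra* and *C3*. *C1qa*, *C4b*, *Cfb*, *Cfi* and *Serping1* were not in that table. The windows were searched on both strands for AGGAAGT, the core bound by PU.1 and related ETS factors of myeloid cells, for the C/EBP motif TTGCNNAA and the STAT motif TTCNNNGAA, in which N is any base. The motifs were picked with the gene names in view and are shown as letters, not as binding sites. Among all 32851 windows of that length, 7.7% hold the ETS core, 9.6% the C/EBP motif and 7.0% the STAT motif. Below are the matches found, each with 10 bases on either side, 5′ to 3′ on the minus strand that codes for the gene, with the matched letters in capitals. All lie upstream of the gene's annotated start.
*C1qb*, chr4:136886237-136886263: aggacctgaaACTTCCTgagggcagca
*C1qc*, chr4:136893093-136893119: gacggcagacACTTCCTcattttggca
*C3*, chr17:57228164-57228191: ggaaactatgTTGCGAAAttttgggcag
The ETS core reads on the strand opposite to the gene in both C1q windows. Counted from the gene starts given above, it begins 66 bases upstream of *C1qb* and 44 upstream of *C1qc*. The RefSeq starts that set the windows differ from these, and counted from them it begins 53 and 195 bases upstream. The *C3* window holds the C/EBP motif 45 bases before the start in both annotations. The window of *C1ra* held none of the 3 motifs, and no window of the 4 held the STAT letters.

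*C1qa* stood at 10.2, 9.17, 10.7 and 8.41 CPM in the WT libraries and at 25.2, 27.9 and 25.1 CPM in the SCA7 libraries. The lowest SCA7 library held 2.34 times the level of the highest WT library. The mean was 9.64 ± 1.05 CPM in WT (SD, n = 4) and 26.1 ± 1.60 CPM in SCA7 retina (SD, n = 3), and the log2 fold change was 1.44 (2.71-fold, SE 0.09, 95% interval 1.25 to 1.63, adjusted p = 4.3e-07).

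*C1qb* was counted at 7.53, 7.0, 9.19 and 6.09 CPM in WT and at 19.5, 21.9 and 19.1 CPM in SCA7 retina. Its groups did not overlap either, with a log2 fold change of 1.44 (SE 0.12, adjusted p = 4.3e-06). *C1qc* was at 6.65, 6.22, 7.28 and 6.04 CPM in WT and 18.1, 20.7 and 17.6 CPM in SCA7 retina. It rose without overlap, with a log2 fold change of 1.53 (2.88-fold, SE 0.09, adjusted p = 2.9e-07).

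The chains kept close to a fixed proportion. Of the 1343 to 1602 C1q counts in a WT library, *C1qa* took 39.4 to 42.0%, *C1qb* 29.6 to 33.8% and *C1qc* 26.8 to 29.4%. Of the 3863 to 6360 in an SCA7 library the shares were 39.6 to 40.6%, 30.9 to 31.1% and 28.5 to 29.4%. The log2 ratio of *C1qa* to *C1qb* changed by -0.01 between genotypes, and the differences between single libraries ran from -0.12 to 0.17 (exact two-sided permutation p = 0.943, n = 4 and 3). For *C1qa* to *C1qc* the change was -0.08, with single differences from -0.20 to 0.03 (exact p = 0.0857). For *C1qb* to *C1qc* it was -0.07, from -0.26 to 0.11 (exact p = 0.486). Between libraries with the same replicate number, the ratio to *C1qc* was lower in SCA7 retina in 3 of 3 pairs for *C1qa* (by -0.15, -0.13 and -0.05) and for *C1qb* (by -0.08, -0.09 and -0.22), and the pairs were not tested. Over all 7 libraries the nearest profile to *C1qa* among 14719 genes averaging 1 CPM or more was that of *C1qc*, with a root mean square difference of log2 CPM, each gene centred on its own mean, of 0.0615. That of *C1qb* followed at 0.073 and that of *Ctss*, a lysosomal protease of microglia, at 0.0791. These profiles are a description over 7 libraries that fall into 2 genotypes. The nearest to *C1qb* were *C1qa*, *C1qc* (0.095) and *Gpr37l1* (0.0995), and the nearest to *C1qc* were *C1qa*, *C1qb* and *Ctss* (0.0973).

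*C1ra* (ENSMUSG00000055172, chr6:124512405-124523443, plus strand), which encodes the C1r protease, was weakly expressed. It had 41, 27, 28 and 30 counts in WT and 105, 127 and 213 counts in SCA7 libraries, or 0.70, 0.377, 0.525 and 0.459 against 1.71, 1.49 and 2.07 CPM. Every SCA7 library was above every WT library by at least 0.788 CPM. The log2 fold change was 1.78 (3.44-fold, SE 0.21, adjusted p = 6.9e-05).

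*C1s1*, the partner protease of C1r, was also upregulated, from 0.977 ± 0.0920 to 1.47 ± 0.124 CPM (log2 fold change 0.59, SE 0.15, adjusted p = 0.012). *C1rl*, a C1r-like protease, went from 0.756 ± 0.135 to 1.24 ± 0.170 CPM (log2 fold change 0.71, SE 0.18, adjusted p = 0.012). Both calls depended on single libraries. Without SCA7 replicate 1 the values were 0.52 (adjusted p = 0.064) for *C1s1* and 0.66 (adjusted p = 0.057) for *C1rl*, and without SCA7 replicate 3 *C1rl* was at 0.65 (adjusted p = 0.06). Of the exon bases of *C1s1*, 18.4% are shared with *Gm16567* on the other strand, and the strand option of the counting is not given in the sources used here. The other 2 protease genes of the C1 group, *C1rb* and *C1s2*, had at most 8 counts in a library.

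*C4b* (ENSMUSG00000073418, chr17:34728380-34743882, minus strand), the C4 gene of the classical pathway, showed the largest change of the 9 genes. It was at 9.74, 6.29, 8.53 and 7.20 CPM in WT and at 70.9, 55.6 and 61.5 CPM in SCA7 retina. The lowest SCA7 library held 5.71 times the level of the highest WT library. The log2 fold change was 2.98 (7.91-fold, SE 0.14, 95% interval 2.67 to 3.30, adjusted p = 4.4e-07). Among the 20128 genes tested it ranked 32 by log2 fold change, above 99.8% of them, and 10 genes averaging 1 CPM or more rose further.

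The ratio of *C4b* to each of the other 8 genes was higher in every SCA7 library than in any WT library. Of the 36 pairs that the 9 genes form, 10 had log2 ratios that reached the smallest p the 35 splits of 4 against 3 libraries allow (exact p = 0.0286), and all 8 pairs with *C4b* were among them. The log2 ratio of *C4b* to *Serping1* was 0.25, 0.17, 0.39 and 0.40 in WT and 1.54, 1.35 and 1.33 in SCA7 libraries, a difference of 1.11 with single differences from 0.93 to 1.37. Against *Cfi* the ratio rose by 1.85, and the ratio of *C3* to *C4b* fell by 2.23. None of the 36 passed adjustment over the 36 pairs (adjusted p = 0.103 for each of the 10). The remaining 2 pairs set *C3* against *C1ra*, whose ratio to *C3* rose by 1.01, and against *Serping1*, where the log2 ratio of *C3* fell by 1.13. The nearest profiles to *C4b* were those of *Fgf2* (0.166), *Prtg* (0.179) and *Edn2* (0.272).

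*C4a*, the paralog of *C4b* on the same chromosome (chr17:34809092-34823464), is annotated as a processed transcript and moved in the other direction. It had 105, 105, 74 and 92 counts in WT and 50, 69 and 95 counts in SCA7 libraries, which is 1.51 ± 0.189 against 0.848 ± 0.0652 CPM. After scaling every SCA7 library was below every WT library, a pattern 18.3% of all genes tested showed, and the log2 fold change was -0.83 (SE 0.16, adjusted p = 0.0022). There were 4.29 to 6.15 *C4b* counts for each *C4a* count in WT and 66.6 to 87.3 in SCA7 libraries. The genes are near-identical copies, and reads that match both could have been dropped or assigned to either, so the values of both are uncertain to that extent. *C2*, whose product is cleaved beside C4, was at 0.669 ± 0.246 CPM in WT and 0.910 ± 0.278 in SCA7 retina (log2 fold change 0.41, SE 0.29, adjusted p = 0.32), with 42.8% of its exon bases shared with *Gm20547*, a readthrough gene on the same strand.

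**Figure D2:**
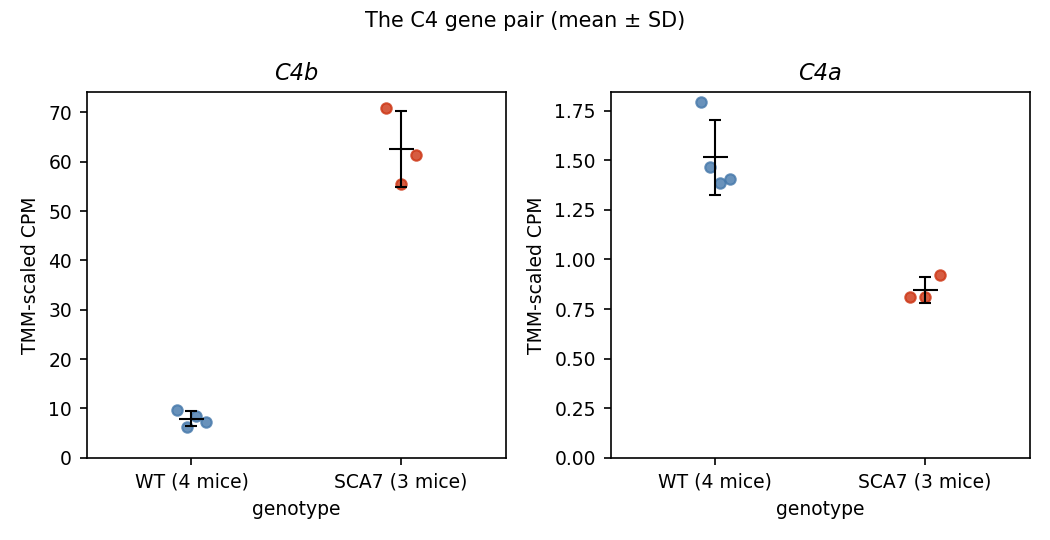
TMM-scaled CPM of *C4b* (left) and *C4a* (right) in each WT (blue, 4 mice) and SCA7 (red, 3 mice) library, with the mean and SD, each axis starting at 0. *C4b* is higher in all SCA7 libraries (62.6 against 7.94 CPM) and *C4a* lower (0.848 against 1.51 CPM).

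*C3* (ENSMUSG00000024164, chr17:57203970-57228136, minus strand) encodes the component at which the pathways meet. It was at 3.16, 1.76, 2.18 and 2.51 CPM in WT and at 3.66, 4.28 and 4.01 CPM in SCA7 retina. The highest WT library, replicate 1, came close to the lowest SCA7 library without overlap. The log2 fold change was 0.73 (1.66-fold, SE 0.17, 95% interval 0.37 to 1.10, adjusted p = 0.0069). Over the alternative fits it ran from 0.61 to 0.92, with an adjusted p of at most 0.035. Its nearest profiles were those of *Tnxb* (0.145), *Noxo1* (0.149) and *Gm38399* (0.155).

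*Cfb* (ENSMUSG00000090231, chr17:34856374-34862518, minus strand), the factor B of the alternative pathway, was near the limit of detection. It had 3, 4, 1 and 1 counts in WT and 6, 9 and 7 counts in SCA7 libraries, or 0.0353 ± 0.0212 against 0.0903 ± 0.0197 CPM. The groups do not overlap, but without the filter on low counts its log2 fold change of 1.28 (SE 0.67) had an adjusted p of 0.20 (edgeR quasi-likelihood test), and DESeq2 gave 1.34 with an unadjusted p of 0.123 and no adjusted p. Of the 2825 exon bases of *Cfb*, 2246 (79.5%) are shared with *Gm20547* on the same strand, which had 0 counts in all 7 libraries. The mode of the counting is not given in the sources used here. Where it leaves out reads that fall on both genes, the counts of *Cfb* come from the other 579 bases and its level is understated. No other gene of the 9 shares exon bases with another annotated gene.

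Of the other alternative pathway genes, properdin (*Cfp*), which stabilises the C3 convertase, was downregulated from 4.34 ± 0.697 to 2.34 ± 0.227 CPM (log2 fold change -0.89, SE 0.14, adjusted p = 6.8e-04). *Cfd*, the factor D that cleaves factor B, had 2 counts in WT replicate 4 and 0 in the other 6 libraries. A count of 0 over the 3 SCA7 libraries allows up to 0.0129 CPM, counting error only.

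*Serping1* (ENSMUSG00000023224, chr2:84765387-84775444, minus strand) encodes the C1 inhibitor. It stood at 8.20, 5.59, 6.53 and 5.45 CPM in WT and at 24.4, 21.7 and 24.4 CPM in SCA7 retina. The SCA7 libraries lay close together and far above all WT libraries. The log2 fold change was 1.87 (3.66-fold, SE 0.12, adjusted p = 1.1e-06). The log2 ratio of *C1ra*, the protease it blocks, to *Serping1* changed by -0.11, with single differences from -0.33 to 0.30 (exact two-sided permutation p = 0.314, n = 4 and 3). Each was also the nearest profile of the other over all genes searched, at 0.145. *Antxr2* (0.23) and *Gm765* (0.231) came next for *C1ra*, and *Trim30d* (0.178) and *Scd3* (0.18) for *Serping1*.

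*Cfi* (ENSMUSG00000058952, chr3:129835884-129875332, plus strand), factor I, was at 1.35, 1.89, 1.97 and 1.5 CPM in WT and at 3.69, 3.6 and 3.73 CPM in SCA7 retina. The 3 SCA7 libraries differed from each other by less than the WT libraries did (SD 0.0689 against 0.299 CPM). The log2 fold change was 1.13 (2.19-fold, SE 0.14, adjusted p = 1.1e-04). Its nearest profiles were those of *Apod* (0.0899), *Itgam* (0.0977) and *Crym* (0.0999). For the untested *Cfb* they were *Icam1* (0.306), *Tlr2* (0.337) and *Bst2* (0.341), far looser matches.

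Levels can be compared between genes only per length. As normalised read counts per kb of median transcript length (RPK, DESeq2 size factors), the order in WT retina was *C4b* (718 ± 135), *C1qa* (640 ± 68.2), *C1qb* (473 ± 81.7), *C1qc* (421 ± 34.4), *C3* (273 ± 66.7), *Serping1* (267 ± 52.1), *Cfi* (84.8 ± 15.2), *C1ra* (11.9 ± 3.16) and *Cfb* (1.45 ± 0.873; SD, n = 4). For comparison the median over all genes tested was 398.3 RPK in WT. The ranges of the WT libraries overlapped between the neighbours *C4b* and *C1qa*, *C1qa* and *C1qb*, *C1qb* and *C1qc*, and *C3* and *Serping1*. In SCA7 retina *C4b* reached 5720 ± 725 RPK, *C1qa* 1745 ± 97.5 and *Serping1* 984 ± 70.1, above *C3* at 456 ± 34.0 (SD, n = 3). This order rests on the length used. With the union of exons, which is far longer for *C4b* and *C3* because many of their annotated transcripts are short, *C1qa* (640) and *C1qb* (473) led in WT retina, *C4b* was at 96.2 and *C3* at 32.2 RPK, and 2 of the 9 genes kept their rank.

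The rest of the pathway moved less uniformly. Of 52 other complement genes, 31 were tested, 10 were upregulated, 6 were downregulated and 15 were not called, and 21 had too few counts. Their median log2 fold change was 0.25. Among receptors and C1q-binding proteins 5 of 9 tested genes rose and none fell. *Itgax*, the alpha chain of complement receptor 4, went from 0.0841 ± 0.0195 to 0.632 ± 0.174 CPM (log2 fold change 2.90, SE 0.31, adjusted p = 3.2e-05). *Itgb2*, the beta chain it shares with complement receptor 3, went from 1.18 ± 0.128 to 2.83 ± 0.425 CPM (1.26, adjusted p = 7.5e-05). *Itgam*, the alpha chain of complement receptor 3, went from 0.740 ± 0.183 to 1.57 ± 0.0552 CPM (1.08, adjusted p = 0.0012), with 68.7% of its exon bases shared with *Gm49368* on the same strand. The C3a receptor *C3ar1* rose from 0.504 ± 0.0762 to 0.995 ± 0.255 CPM (0.98, adjusted p = 0.005), and *Cd93*, a receptor once described as binding C1q, from 5.09 ± 0.416 to 8.25 ± 0.635 CPM (0.70, adjusted p = 2.5e-04). The C5a receptor *C5ar1* was low and not called (0.0990 ± 0.0949 against 0.153 ± 0.0394 CPM, log2 fold change 0.61, SE 0.56, adjusted p = 0.44).

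Fluid-phase regulators besides *Serping1* and *Cfi* moved in both directions. Clusterin (*Clu*), which keeps terminal complexes from inserting, rose from 508 ± 22.2 to 1045 ± 29.0 CPM (1.04, adjusted p = 5e-07). Vitronectin (*Vtn*), which also binds terminal complexes, fell from 1102 ± 61.1 to 576 ± 71.3 CPM (-0.94, adjusted p = 1.4e-05). *C4bp*, a cofactor for the cleavage of C4b, went from 0.248 ± 0.0959 to 0.101 ± 0.0481 CPM (-1.23, adjusted p = 0.044), and its groups overlapped. That call was kept in 8 of 14 alternatives and was lost without WT replicate 1 (-1.12), WT replicate 2 (-1.0), SCA7 replicate 1 (-1.04) or SCA7 replicate 2 (-1.07).

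Among 9 tested membrane regulators, *Cr1l* (Crry, the main rodent inhibitor of C3 convertases on cells) rose from 10.4 ± 1.06 to 15.9 ± 0.445 CPM (log2 fold change 0.62, adjusted p = 2.1e-04). *Csmd1*, a complement inhibitor of neurons, fell from 13.2 ± 1.07 to 7.01 ± 0.530 CPM (-0.91, adjusted p = 1.7e-05). The other 7, *Cd46*, *Cd55*, *Cd59a* and *Cd59b* among them, were not called, with log2 fold changes from -0.32 to 0.27. In the lectin pathway 1 of 3 tested genes was called. *Masp2*, the protease that cleaves C4 and C2 there, fell by 1.10 on the log2 scale (adjusted p = 0.042), with 8 to 20 counts per library and 54.9% of its exon bases shared with *Tardbp* on the other strand. That call was kept in 5 of 14 alternatives, lost among others without WT replicate 1 (-0.93) or 2 (-1.0) or any SCA7 library (-1.29 to -1.0). Of 7 terminal components 6 had too few counts to be tested. *C9* had 0 counts in every library, which allows up to 0.00606 CPM over all 7 libraries, *Hc* (C5) had 0 to 3 counts, and none of the 6 exceeded 12 counts in a library. *C8g*, the only tested gene of the group, had a level of 0.877 ± 0.240 CPM in WT against 1.02 ± 0.0604 in SCA7 retina and was not called (0.23, adjusted p = 0.45).

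**Figure D3:**
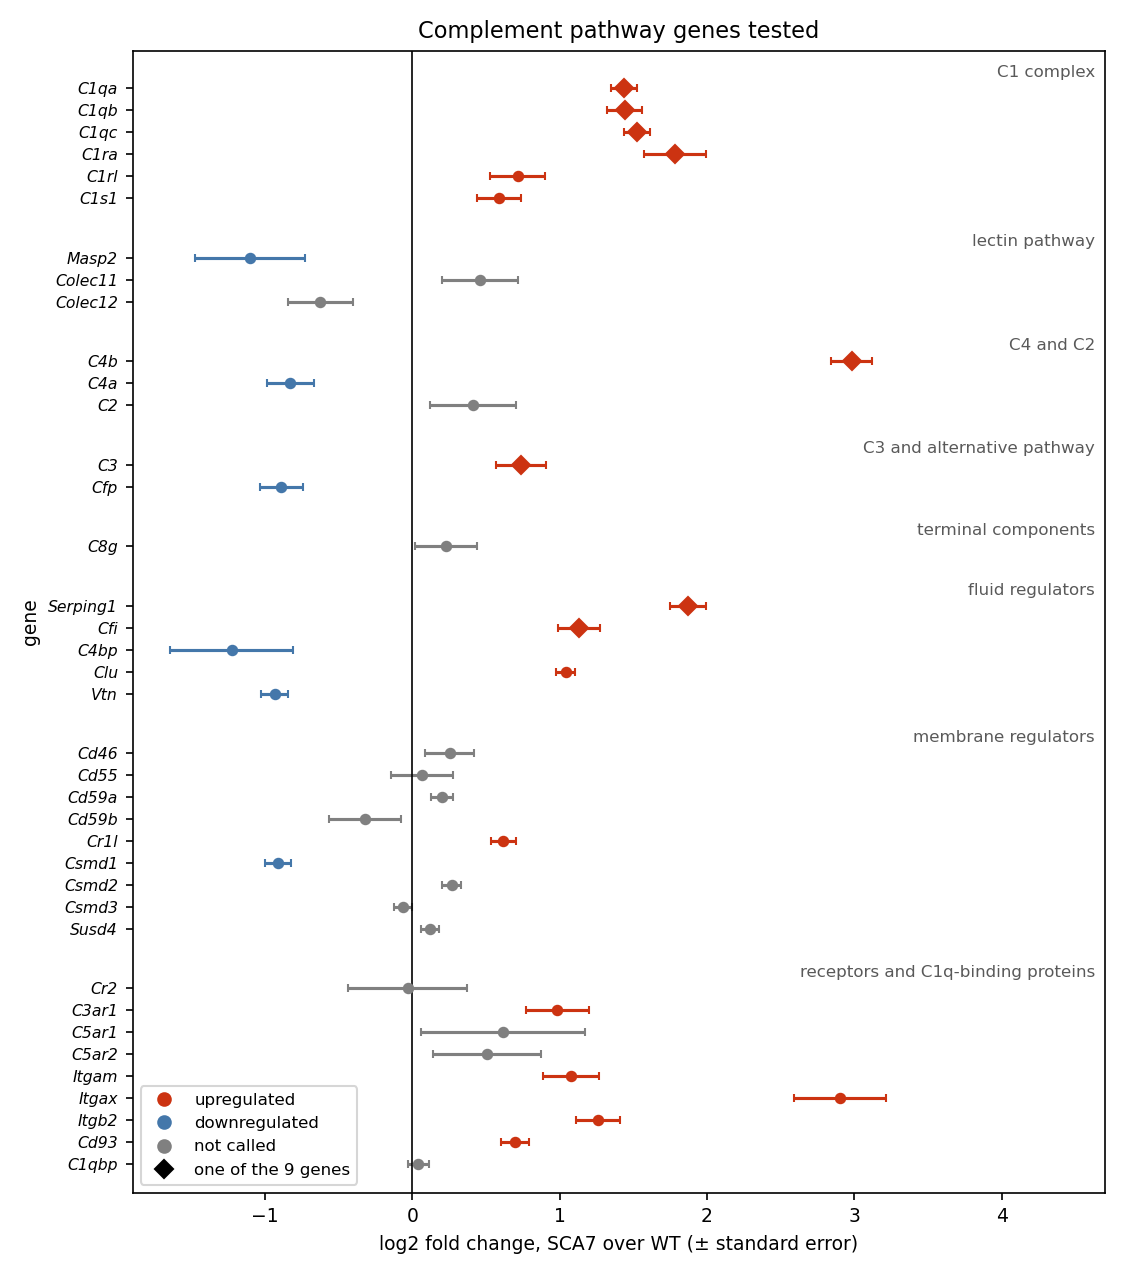
Log2 fold change (SCA7 over WT, with the standard error of the edgeR fit) of 38 complement pathway genes tested, grouped by role, as diamonds for 8 of the 9 genes described here and circles for 30 others. Red marks upregulated, blue downregulated and grey genes not called. The diamonds lie between 0.73 and 2.98, while the circles lie on both sides of 0.

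Other cell types of the sample moved with the genotype as well. All 12 microglia markers (*Tmem119*, *P2ry12*, *Cx3cr1*, *Csf1r* and 8 more) were upregulated, with a summed level of 81.42 to 99.92 CPM in WT and 165.6 to 184.7 in SCA7 libraries. *Tmem119* was at 3.10 ± 0.705 against 5.24 ± 0.282 CPM and *P2ry12* at 3.50 ± 0.392 against 5.84 ± 0.138 CPM. In whole retinas more cells of a type and more RNA per cell cannot be told apart. Of 6 markers of blood monocytes and neutrophils none was called (summed level 0.6577 to 3.3 against 1.283 to 3.738 CPM, *Ccr2* 0.102 ± 0.0835 against 0.158 ± 0.0192 CPM). None of 9 Müller glia markers was called (4570 to 5513 against 4460 to 4737 CPM, *Rlbp1* 509 ± 47.8 against 467 ± 4.94 CPM). Within the FC limits, 4 of them were higher at an adjusted p under 0.05, *Aqp4* (log2 fold change 0.31), *Kcnj10* (0.33), *Sox9* (0.37) and *Abca8a* (0.30), and *Glul*, which makes up most of the sum, was lower (-0.36), so the list was not unchanged. In contrast 7 of 8 reactive glia genes rose (164.6 to 189.8 against 402.1 to 450 CPM, *Gfap* 18.4 ± 3.95 against 90.1 ± 4.97 CPM). Of 9 markers of endothelium and pericytes 4 rose (246 to 289.5 against 335.8 to 379.7 CPM), most of the higher sum being *Kdr* (106 ± 18.2 against 171 ± 27.4 CPM), while *Cldn5* was lower in every SCA7 library within the FC limits (log2 fold change -0.48, adjusted p = 0.011), and of 5 fibroblast markers 1 rose, *Pdgfra* (15.1 ± 1.07 against 23.1 ± 2.97 CPM), which carries the higher sum of that list (21.77 to 28.86 against 28.8 to 34.31 CPM, median log2 fold change -0.33). Of 8 retinal pigment epithelium markers 4 fell and none rose (109.4 to 222 against 20.46 to 49.73 CPM, *Rpe65* 21.1 ± 7.29 against 4.40 ± 1.78 CPM). Those that fell, *Rpe65*, *Ttr*, *Lrat* and *Rgr*, carry the lower sum. The rest were not called, with log2 fold changes of 0.56 (*Mlana*), 0.14 (*Tyr*), 0.08 (*Best1*) and -0.90 (*Pmel*), so the list did not fall as a whole. Of 5 red blood cell genes 1 fell (54.51 to 76.74 against 30.53 to 61.65 CPM). All 6 rod markers fell (56670 to 58680 against 13940 to 18540 CPM). No marker was at 0 in all libraries, and the part of these cell types in the complement values was not tested.

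Set against the mean log2 CPM of the 12 microglia markers in the same library, the complement genes split. The log2 ratio of *C1qa* was 1.46, 1.35, 1.38 and 1.44 in WT and 1.78, 1.77 and 1.79 in SCA7 libraries, a difference of 0.37. Every SCA7 library was above every WT library in that ratio too, and single differences ran from 0.31 to 0.44. *C1qb* differed by 0.38 (single differences from 0.24 to 0.46) and *C1qc* by 0.46 (from 0.31 to 0.55). *C4b*, at 1.38, 0.81, 1.05 and 1.22 in WT and 3.27, 2.76 and 3.08 in SCA7 libraries, differed by 1.92, and *Serping1* by 0.82 (from 0.27 to 1.12). These 5 genes had the smallest p that the design allows (exact two-sided permutation p = 0.0286, n = 4 and 3), and none of the 9 ratios passed adjustment over the 9 (adjusted p = 0.0514 for these 5). Without *Aif1*, *Trem2*, *Tyrobp* and *Ctss*, markers that rise in activated microglia, the differences were 0.49, 0.50, 0.58, 2.05 and 0.94 in the same order. These markers were among those with the larger rises here (1.06 to 1.43), while *Fcrls* (2.12) was kept. Leaving them out widens every difference by construction, so these values are no separate test.

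For the other 4 genes the ratios overlapped between genotypes. The ratio of *C1ra* differed by 0.70 (single differences from -0.06 to 1.41, exact two-sided permutation p = 0.0857, n = 4 and 3), and between libraries with the same replicate number it was higher in SCA7 retina in 3 of 3 pairs, by 0.30, 0.76 and 1.14. The pairs were not tested, and with 1 CPM added in place of 0.01 the difference for this weakly expressed gene was 0.03. That of *Cfi* differed by 0.08 (from -0.26 to 0.50, exact p = 0.743) and that of *C3* by -0.31 (from -0.76 to 0.17, exact p = 0.371). *Cfb*, on its few counts, differed by 0.19 (from -0.77 to 1.07, exact p = 0.629), and with 1 CPM added its ratio turned to -0.76 (exact permutation, adjusted p = 0.0429 over the 9 ratios). The 1 CPM added is far above the level of *Cfb*, so that value mainly follows the markers. Against the mean log2 CPM of the 9 Müller glia markers the ratios of *C1qa*, *C1qb*, *C1qc*, *C1ra*, *C4b*, *Cfi* and *Serping1* rose by 1.04 to 2.89 without overlap (exact two-sided permutation p = 0.0286 for each, n = 4 and 3, 9 ratios compared, 1.67 for *C1ra* and 0.77 with 1 CPM added), while that of *C3* differed by 0.65 with overlap (exact p = 0.0857). The ratio of *Cfb* differed by 1.15 without overlap (single differences from 0.11 to 2.21, exact two-sided permutation p = 0.114, n = 4 and 3), and with 1 CPM added the difference was -0.021.

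**Figure D4:**
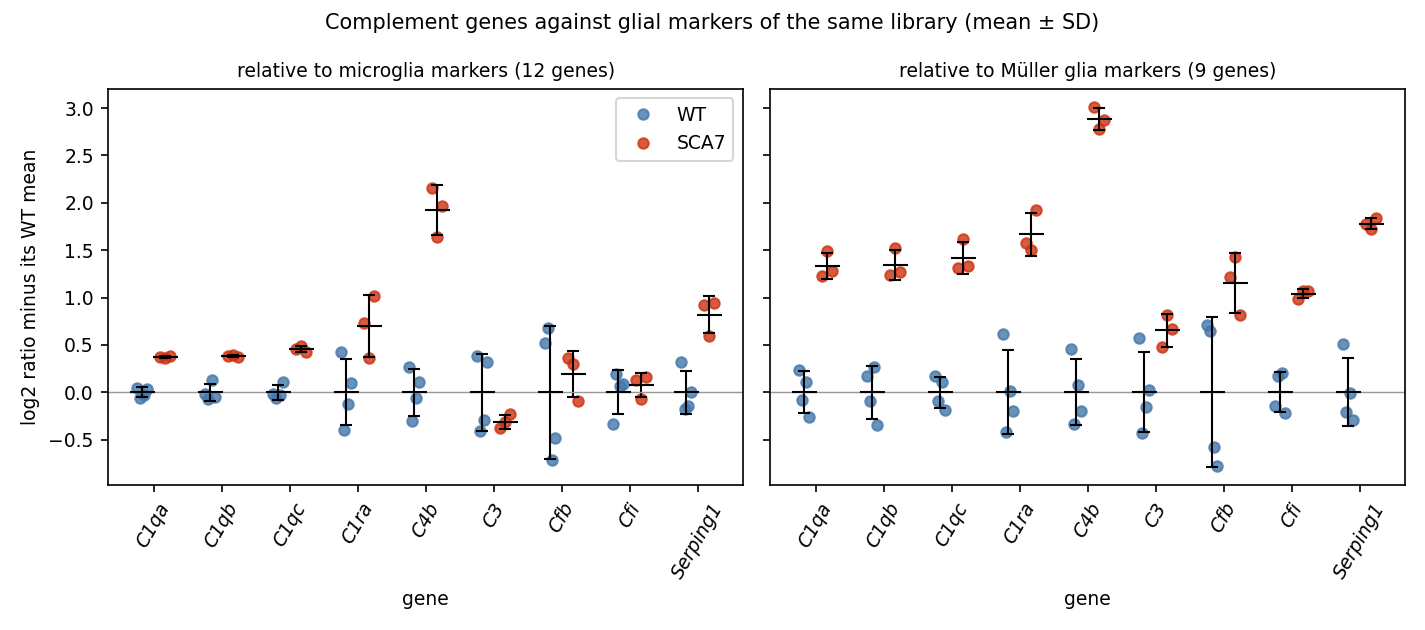
Log2 ratio of each complement gene to the mean of 12 microglia markers (left) and of 9 Müller glia markers (right) in the same library, shown as the difference from the gene's WT mean, for 4 WT (blue) and 3 SCA7 (red) mice with mean and SD. On the left the red points of *C4b* (1.92), *Serping1* (0.82) and the C1q chains (0.37 to 0.46) lie above all blue points, and those of *C3*, *Cfb*, *Cfi* and *C1ra* overlap with them.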

How the data were processed

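Total RNA of 4 WT and 3 SCA7 mice was measured, 1 library per mouse. According to the submitters' processing notes and the study's methods, the authors depleted ribosomal RNA, made stranded libraries, mapped single reads to mm10 (TopHat2 2.0.14, Bowtie2 2.1.0) and ran HTSeq 0.6.1 to get counts for Ensembl genes. The HTSeq mode and strand option are not given in the sources used here. The deposited table holds raw counts, not normalized, for 52550 genes, 52403 of which matched the GRCm38 annotation used for names and positions.

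Genes were kept by filterByExpr of edgeR 4.0.16 (20128 genes), scaled by TMM, and tested with glmQLFit (robust) and glmQLFTest in R 4.3.3, with genotype as the only term, and p-values were adjusted over all 20128 genes (Benjamini-Hochberg). CPM are TMM-scaled. Library totals were 59902546 to 74733202 counts in WT and 56497675 to 96635832 in SCA7 retina, with TMM factors of 0.8905 to 0.9742 and 1.065 to 1.09. Limits from a count of 0 (3 counts of the unscaled total) cover counting error only. Ratios were taken on log2 CPM with 0.01 CPM added and compared by exact two-sided permutation of the genotype labels (35 arrangements) (scipy 1.17.1). RPK were read counts divided by DESeq2 1.42.0 size factors and by the median transcript length.

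Alternatives were DESeq2 size factors, the DESeq2 Wald test, limma-voom (limma 3.58.1), no filter on low counts, a minimum of 10 counts per library, a replicate block, *Xist* (log2 CPM) as a covariate, a stricter adjusted p (0.01), no FC limit, each library left out, 1 CPM added, other reference genes and exon-union lengths. Total counts without TMM factors were added after seeing the data. Labels number the replicates alike in both genotypes. Deviations of same-numbered libraries from their group means correlated at 0.109, 0.382 and 0.167 over 14720 genes, all above 0.1, so by that limit the numbers could pair 3 WT with 3 SCA7 libraries. WT replicate 4, which has no partner, correlated at 0.145 with SCA7 replicate 1 and 0.188 with SCA7 replicate 3, above the value of each with its own number. Whether the numbers mark pairs is thus uncertain. The main fit and the permutation tests did not use them, and they entered only as the replicate block and in untested differences between same-numbered libraries. *Xist* had 4 to 19 counts in every library, so as a covariate it holds mostly counting noise and cannot stand for sex.

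The members and lists were chosen with earlier results of these data known. Named were all 9 genes, the other pathway genes that were called or define a step, the 3 nearest profiles of each gene, *Atxn7*, and the defining marker of each cell type list. The single values of 1 pathway gene are not reported here, while the counts of pathway genes include it. The fits were tested on simulated counts. The ChIP-seq data were not analysed here.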

Additional observations from a re-analysis of the deposited data

How the results depend on the processing

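Under each of the 17 alternatives of test, scaling, filter, covariate, threshold and libraries, 8 of the 9 complement genes were upregulated and 0 downregulated, with log2 fold changes from 0.61 (*C3*) to 3.18 (*C4b*). With the replicate block the counts were 8 of the 9 genes, 10 upregulated and 7 downregulated other pathway genes (*Colec12* gained, -0.57, adjusted p = 0.0067), and it changed no other call of these genes. Over all alternatives the other pathway genes gave 8 to 12 upregulated and 4 to 7 downregulated. Over all genes tested, 1504 up and 1592 down became 3681 and 978 with total counts without TMM factors, which move the median of all genes to 0.17 on the log2 scale and that of the other pathway genes from 0.25 to 0.44. Without the FC limit they became 2853 and 2852. Leaving out a library gave 1215 to 1559 up and 1196 to 1731 down. With 1 CPM added in place of 0.01, 6 of the 9 ratios to microglia markers and 22 of the 36 pair ratios passed adjustment, in place of 0 and 0 (for the pairs the cause was not tested). Of these 6, 1 was *Cfb*, whose ratio turned from 0.19 to -0.76 (exact permutation, adjusted p = 0.0429). *Cfb* held 0.0153 to 0.105 CPM, far below the 1 CPM added, so that ratio mainly follows the markers. The rest had the smallest exact permutation p in both settings. Their adjusted p moved from 0.0514 to 0.0429 once *Cfb* shared that p. Of the ratios to Müller glia markers 7 passed adjustment over the 9, and 0 (lowest and highest 0) with any library left out, where too few splits remain to reach the threshold. With the union of exons as length 2 of 9 genes kept their rank by RPK.

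Directions turned for genes and ratios that were not called in the analysis as reported. *Cd55* (0.06) was at -0.04 without WT replicate 1, -0.01 without WT replicate 3 and -0.051 without SCA7 replicate 2. *Cr2* (-0.03) was at 0.077 with limma-voom, 0.41 with the block, 0.23 with *Xist* as covariate, 0.15 with total counts and -0.23 to 0.37 with a library left out (0.37 without WT replicate 4), and *Csmd3* (-0.07) at 0.12 with total counts. The ratio of *Cfb* to microglia markers was, besides the value above, -0.047 to 0.42 with a library left out (-0.047 without WT replicate 3), that of *Cfi* -0.021 with 1 CPM added and -0.036 without WT replicate 1, and that of *Cfb* to Müller glia markers -0.021 with 1 CPM added. *Cfb*, *C1ra* and 21 other pathway genes are limited by depth, and with 3 and 4 mice no exact p can fall below 0.0286.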
